A study of Homo sapiens with 9 samples.

Results

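ZC3H11A binding was compared between HEK293 and K562 cells in 10plex antibody-barcode eCLIP (ABC), in which 10 barcoded antibodies share 1 lysate and a read's barcode names the RNA-binding protein (RBP) that held the fragment. All ZC3H11A libraries of the 10plex pools were taken, 2 from HEK293 and 3 from K562, and the 45 libraries of the other 9 RBPs in the same pools (DDX3, EIF3G, FAM120A, IGF2BP2, LIN28B, PRPF8, PUM2, RBFOX2 and SF3B4) served as controls for expression. The 5 pools are 5 of the 9 samples analysed here in the series. Both lines were UV-crosslinked, and the labels give no other treatment. HEK293 is a human embryonic kidney line, which the sample titles call HEK293T, and K562 is an erythroleukemia line. Peaks were called enriched by 2 limits over the complement control (CC), the summed reads of the other 9 RBPs of the pool at that place: P had to be below 0.001 and the fold above 8.

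ZC3H11A is a CCCH zinc finger protein of the nucleus that is known to associate with the TREX complex, which couples transcription and processing of mRNAs to their export. It is known to bind spliced mRNAs, and export of a subset of transcripts depends on it, in particular during stress and infection by viruses that replicate in the nucleus. A CLIP peak marks RNA that was close enough to the protein to be crosslinked, and how many reads a transcript gives depends on its abundance as well as on binding.

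The merged lists held 13729 and 22198 ZC3H11A peaks in the HEK293 replicates and 6044, 11494 and 4667 in the K562 replicates, with 54586 to 224585 reads in peaks. The labels of the HEK293 pools name HEK293T in the title and K562 in another field. Summed over the 10 RBPs, 13 erythroid markers had 10 and 23 reads in the HEK293 pools and 4425 to 9410 in the K562 pools. A set of 12 genes chosen as HEK293 markers, not all of them specific to kidney, had 2681 and 4186 reads against 3 to 8. The markers thus followed the titles. Both HEK293 pools are titled as replicate 1, with a note in the title that they were once replicates 1 and 2, and they are numbered so here. Nothing states that any of the pools came from separate cultures, so that p-values measure the spread between these pools, which may be technical. ZC3H11A peaks also lay at places where the genome resembles the library's own oligo, the barcode GCCAA followed by AGATC of the adapter, in 5.85%, 2.20%, 4.13%, 2.26% and 11.4% of the peaks past the limits in HEK293 replicates 1 and 2 and K562 replicates 1 to 3. Such peaks were left out below, since 17 of 25 sites enriched in all 5 libraries resembled the oligo or adapter. The match (in capitals) at the one with the highest mean log2 fold, on the plus strand of chr7:39582890-39582919 in GRCh38, in an intron of YAE1, is shown because its 10 bases are those of the oligo.
YAE1 intron: agagaaagatGCCAAAGATCggtatagctt
At this site ZC3H11A had 73, 14, 8, 20 and 21 reads in HEK293 replicates 1 and 2 and K562 replicates 1 to 3, and log2 folds of 7.34 to 9.87 over the CC.

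The sequences that follow are examples of a shared site and of a site found in one line, from the GRCh38 genome on the transcript's strand and written as DNA. The first 4 were enriched in all 5 libraries, the next was enriched in both HEK293 libraries and had no ZC3H11A peak in K562, and the last was enriched in the 3 K562 libraries and had no ZC3H11A peak in HEK293. Capitals mark the bases within the peaks of all libraries of the group, which for PRAME are few since its peaks differ in their ends.
EDC4, 3′ UTR, chr16:67884342-67884371, plus strand: gGTATTGCGCCTGCTTGGGTTCTGCCATGC
PRAME, CDS, chr22:22550863-22550892, minus strand: gcaggcctGGCCCTTCACCTGcctccctct
TTLL3, CDS, chr3:9835306-9835335, plus strand: CAGGGGCCTGGGGGATATGAAGCTAGGGAA
DGCR8, 3′ UTR, chr22:20111303-20111332, plus strand: gagtccAGCGTTCTGCCGTGTCTGTccccc
TARBP1, 3′ UTR, chr1:234391330-234391359, minus strand: attTTAAGCAATTGTGGAAATAAAACAatg
VEGFA, 3′ UTR, chr6:43786404-43786433, plus strand: ttTTTAAACAACGACAAAGAAATACAGATa

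ZC3H11A had 1669 and 1721 enriched peaks in HEK293, in 1260 and 1329 genes, and 852, 2370 and 586 in K562, in 602, 1440 and 447 genes. They were 14.0% and 9.19% of the ZC3H11A peaks with a CC value in HEK293 and 19.0%, 23.7% and 13.0% in K562. The number of enriched peaks overlapped between the lines (difference of means 425.7, exact permutation test, two-sided, p = 0.6), with K562 replicate 2 above and the other K562 libraries below both HEK293 libraries. Among these peaks, 8 sites were enriched in all 5 ZC3H11A libraries, of which 6 lay in 3′ UTRs and 2 in coding sequence. The site with the highest mean log2 fold lay in the 3′ UTR of EDC4, a scaffold of the decapping complex in P-bodies. It had 12 and 16 reads in the HEK293 replicates and 6, 24 and 14 in the K562 replicates, with log2 folds of 5.10, 5.43, 5.92, 5.99 and 5.29. The lines differed there by less than 1 on the log2 scale, and its ZC3H11A reads exceeded the summed reads of the other 9 RBPs in all 5 pools, which were 9, 9, 2, 9 and 11.

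**Figure D1:**
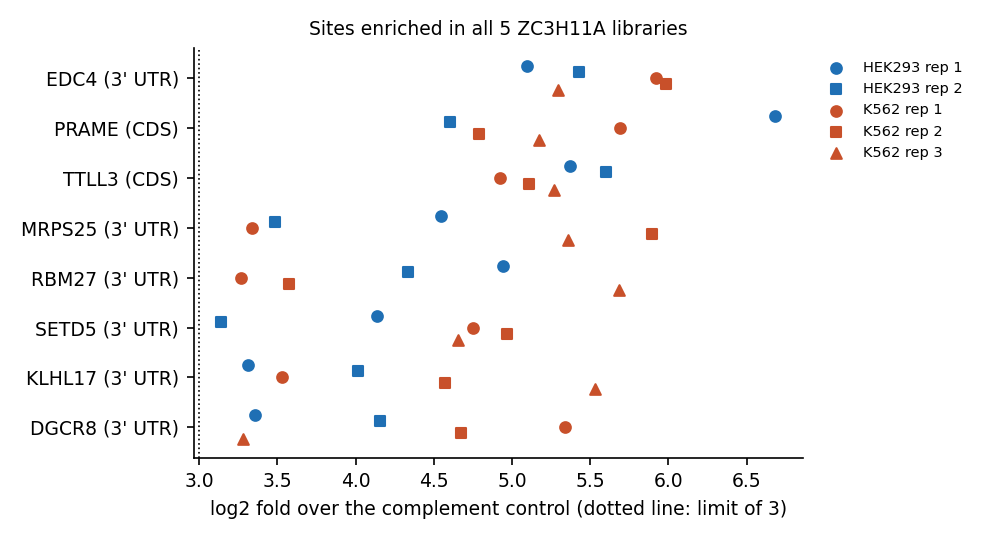
The plot shows the log2 fold over the CC (x axis, log2 scale) of the 8 sites enriched in all 5 ZC3H11A libraries (y axis), 1 point a library, blue for HEK293 and orange for K562. All points lie right of the limit of 3, and the lines overlap at 6 of the 8 sites, while both HEK293 points lie right of the 3 K562 points at TTLL3 and left of them at SETD5.

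PRAME, a cancer-testis antigen, showed the strongest contrast in reads at a shared site. ZC3H11A had 4 and 5 reads there in HEK293 and 69, 87 and 62 in K562, and the other 9 RBPs had 0 and 5 against 27, 75 and 53. Reads of all RBPs were thus fewer in HEK293, and the log2 folds, 6.68 and 4.60 against 5.69, 4.79 and 5.17, overlapped. In TTLL3, a tubulin glycine ligase, the CDS site had 21 and 16 reads in HEK293 and 15, 29 and 15 in K562 with log2 folds of 4.92 to 5.6, the lowest spread of the 8 sites (SD 0.26, n = 5). The other 5 sites lay in the 3′ UTRs of MRPS25, a protein of the mitochondrial ribosome, RBM27, an RNA-binding protein, SETD5, a chromatin regulator, KLHL17, a Kelch-like adaptor, and DGCR8, the partner of DROSHA in microRNA processing. Their mean log2 folds ran from 4.16 to 4.52. The KLHL17 site had 19 and 26 reads in HEK293 against 4, 16 and 12, and the DGCR8 site 8 and 10 against 4, 15 and 6. The peaks of SETD5 and KLHL17 overlap that of K562 replicate 3 but have no base in common to all 5. For the other 9 RBPs the same count ran from 2 sites (PUM2) to 2185.

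At the level of genes, 366 genes had an enriched ZC3H11A peak in both HEK293 libraries and 77 in all 3 K562 libraries, and 28 in all 5. A gene had to recur over 2 libraries in one line and 3 in the other, so that the numbers do not compare the lines. Without K562 replicate 3, 238 genes recurred in K562 and 54 in both lines. As a minimum of expression, genes were counted that had at least 20 reads of the other 9 RBPs in every pool. Reads of a gene are here and below those in called peaks, peaks in repeats included. The minimum does not equalize coverage between the lines. The ZC3H11A libraries of HEK293 also had more reads in peaks (120579 and 224585 against 83985, 106962 and 54586 in K562). Of 7046 genes that met the minimum, 260 (3.69%) recurred in HEK293, 65 (0.923%) in K562 and 27 (0.383%) in both. The shared genes were 41.5% of those recurring in K562 and 10.4% of those recurring in HEK293. For the other RBPs these shares ran from 21.1% to 92.5% and from 9.76% to 62.0%, and the plot of the shares places ZC3H11A between PUM2, which has the fewest reads, and DDX3 and EIF3G.

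**Figure D2:**
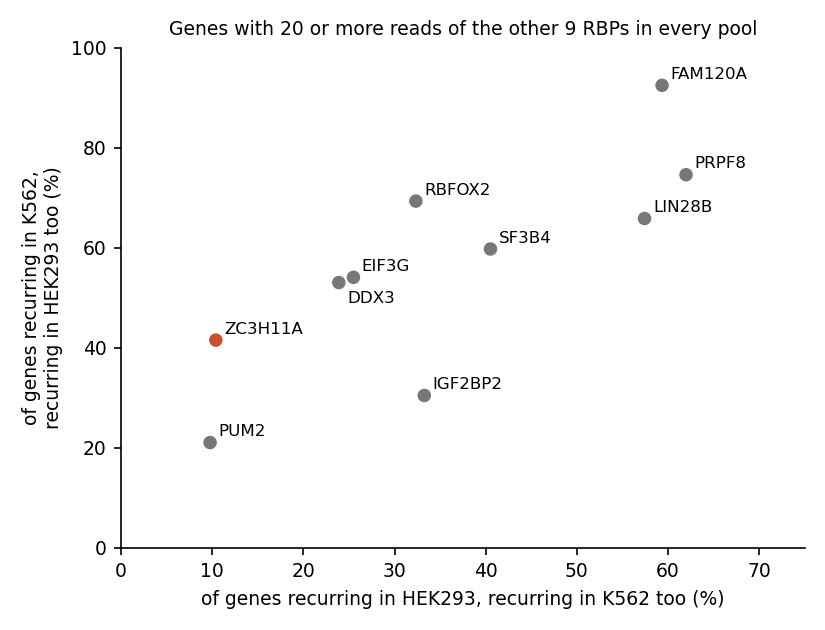
For each of the 10 RBPs, the plot gives the percent of genes recurring in HEK293 that also recur in K562 (x axis) and the percent of genes recurring in K562 that also recur in HEK293 (y axis), over genes with at least 20 reads of the other 9 RBPs in every pool. ZC3H11A (orange) lies at 10.4% and 41.5%, with PUM2 alone below it on the x axis and PUM2 and IGF2BP2 below it on the y axis.

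The 28 genes recurring in both lines include, besides the genes of the shared sites, NKTR, a cyclophilin with an arginine and serine rich domain, HDAC6, the cytosolic tubulin deacetylase, OGT, the enzyme that adds O-linked GlcNAc, CTTN (cortactin), NBEAL2, TAF1C, NFATC2IP, HGS and GOLGA8B. In 8 of them the same site was enriched in all 5 libraries, and in a further 18 an enriched peak of at least 1 HEK293 library overlapped one of a K562 library. In the last 2 of the 28, CTTN and ULK3, no enriched peaks of the lines overlapped. At one site in the 3′ UTR of HGS, which sorts ubiquitinated receptors on endosomes, ZC3H11A had 21 and 21 reads in HEK293 and 5, 6 and 10 in K562, and it was past the limits in both HEK293 libraries and in 2 of the 3 K562 libraries. NKTR had 3 and 3 enriched peaks in the HEK293 libraries and 11, 12 and 3 in the K562 libraries. MRPS25 had 10 and 7 against 6, 10 and 3, and DGCR8 had 3 and 3 against 7, 10 and 7. Several peaks in a gene were thus found in both lines at these genes. GOLGA8B has near-identical copies, GOLGA8A among them, and the authors' unique alignment could split its reads, so that its 4, 3, 2, 6 and 2 enriched peaks are uncertain.

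A further 191 genes recurred in HEK293 with no enriched ZC3H11A peak in any K562 library, and 25 in K562 with none in HEK293. In 139 of the 191, no ZC3H11A peak of any kind was called in K562, and in 11 of the 25 none was called in HEK293. Reads of the other 9 RBPs in the other line were too few in many of them, as 102 of the 191 and 18 of the 25 had at least 20 in each of its pools, and 22 and 6 had none. With this minimum met in every pool, which does not equalize coverage, 101 genes (1.43% of 7046) were left for HEK293 only and 18 (0.255%) for K562 only.

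Among these, CORO6, an actin-binding coronin, had the highest mean log2 fold in HEK293 (6.27 and 6.19 at its best peak of 3 reads each). ZC3H11A had 6 and 11 reads in the gene in HEK293 and 0 in each K562 library, while the other 9 RBPs had 215 and 322 reads against 41, 54 and 31. Coverage of CORO6 in K562 was thus lower for all RBPs. TARBP1, a tRNA 2′-O-methyltransferase, had 46 and 57 ZC3H11A reads in HEK293 and 0 in each K562 library, with 1001 and 1361 reads of the other RBPs against 51, 122 and 91. WDR6, a partner of another tRNA 2′-O-methyltransferase, had 53 and 94 against 0 in each K562 library, with 761 and 1179 reads of the other RBPs against 69, 117 and 43. For both genes ZC3H11A peaks were called in HEK293 alone, where the other RBPs also gave more reads. A peak needs at least 3 reads, so that up to 2 ZC3H11A reads in a place would not be seen. DGKH, ENSG00000259692, UGGT2, WDR59 and TNIP2, the other genes named by the rule, had mean log2 folds of 4.93 to 5.93, on best peaks of 3 or 4 reads.

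The 8 genes named for K562 had 84 to 1285 reads of the other 9 RBPs in the HEK293 pools. RBM41, an RNA-binding protein, had 11, 47 and 9 ZC3H11A reads in K562 and 23 and 43 in HEK293, so that peaks were called in both lines and were past the limits in K562 alone (log2 folds at the best peak 4.75, 6.16 and 4.53). ABL1, whose fusion with BCR is carried by K562, had 7, 35 and 10 reads in K562 and 0 and 3 in HEK293, with 624, 1211 and 710 reads of the other RBPs against 456 and 597. HSPG2, which encodes the basement membrane proteoglycan perlecan, had 12, 48 and 10 against 0 and 0, with 771, 1026 and 930 reads of the other RBPs against 113 and 183. In ABL1 the reads of the other RBPs were thus of the same order in both lines, and its best ZC3H11A peaks had 3 to 5 reads. CDC42BPB, ANKRD9, NT5DC3, GALNT12 and ACACA had mean log2 folds of 4.39 to 5.54.

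Sites that recurred within a line numbered 130 in HEK293 and 36 in K562. Of the HEK293 sites, 50 (38.5%) overlapped a ZC3H11A peak in at least 1 K562 library and 44 (33.8%) an enriched one. Of the 92 in genes with enough reads of the other RBPs, these shares rose to 52.2% and 46.7%, against 56.5% to 94.6% and 56.5% to 84.8% for the other 9 RBPs. For sites of HEK293 looked for in K562, ZC3H11A was thus lowest of the 10 on both, as a description of these libraries. In the other direction, 21 of 36 K562 sites (58.3%) had a ZC3H11A peak in HEK293 and 18 (50.0%) an enriched one. Of the 30 in genes with enough reads of the other RBPs, the shares were 63.3% and 53.3%, against 61.5% to 98.9% and 46.2% to 94.8% for the other 9 RBPs, with PUM2 below ZC3H11A on both. In TARBP1, the 3′ UTR site shown above had 3 and 9 reads in HEK293, and at the same place the called peaks of the other 9 RBPs held 4, 0 and 0 reads in K562, where 0 stands for no called peak. In the 3′ UTR of SRSF5, an SR splicing factor, a site had 41 and 47 ZC3H11A reads in HEK293 (log2 folds 4.02 and 4.30) and 0, 5 and 3 in called peaks in K562, where those of the other 9 RBPs held 0, 234 and 47. The VEGFA 3′ UTR site shown above had 16, 12 and 4 reads in K562 (log2 folds 4.75, 4.35 and 4.14), and no peak of any of the 10 RBPs was called there in HEK293. VEGFA, the angiogenic growth factor, held 3 of the 36 K562 sites, all in its 3′ UTR. Its other sites had ZC3H11A peaks in HEK293. These held 5 and 5 reads at the site that starts at chr6:43784746. At the site that starts at chr6:43785141 they held 0 and 8 reads, the latter in an enriched peak.

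In both lines most enriched peaks lay in the CDS and the 3′ UTR. The CDS held 45.8% and 38.9% of them in HEK293 and 48.5%, 54.2% and 32.8% in K562 (exact permutation test over libraries, two-sided, p = 0.8). The 3′ UTR held 35.2% and 36.4% against 29.7%, 33.7% and 34.5%, and the difference of 3.19 percentage points had p = 0.2 in the same exact test. With 2 libraries against 3, no p below 0.1 can be reached. Relative to the mean of the other 9 RBPs of the same pool, the 3′ UTR share was higher by 10.3 and 11.8 percentage points in HEK293 and by 6.55, 8.69 and 7.14 in K562, which do not overlap (exact permutation p = 0.1, the smallest possible, adjusted 0.4). The groups overlapped once the peaks of undetermined repeat status were left out of K562 replicate 3, whose peaks in repeats could not all be removed. Over its peaks known to lie outside repeats, its 3′ UTR share was 45.2%, above both HEK293 libraries, and 17.4 percentage points above the other RBPs. The difference of the lines then turned from 3.19 to -0.39 percentage points, and that relative to the other RBPs was 0.18 (exact permutation p = 1.0). With P below 1e-05 and a fold above 16 the former was -0.73. The 5′ UTR held 0.988% to 2.23%, below the mean of the other RBPs in all 5 pools (differences of -11.5 to -8.85 percentage points). Distal introns held 9.83% and 12.8% against 10.5%, 4.43% and 21.5%. Over the peaks known to lie outside repeats, the last share was 4.52%.

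**Figure D3:**
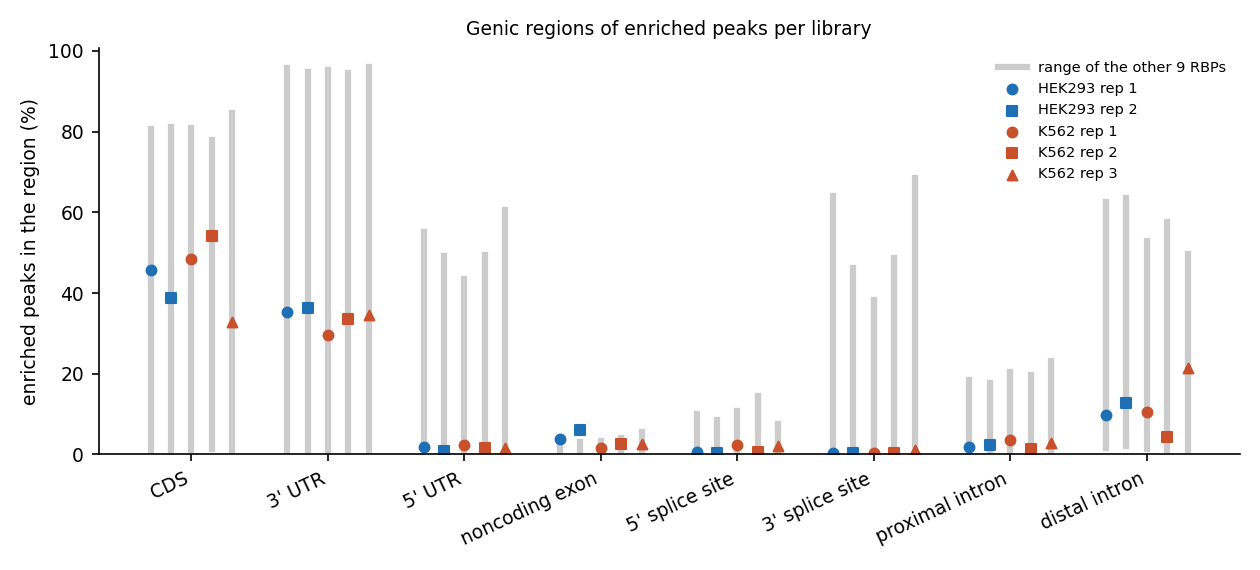
The plot gives the percent of enriched ZC3H11A peaks (y axis) in each genic region (x axis), 1 point a library, with grey bars from the lowest to the highest of the other 9 RBPs of that pool. CDS and 3′ UTR hold the largest shares in all 5 libraries, and the noncoding exon points of HEK293, 3.77% and 6.04%, lie above those of K562.

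The noncoding exon share was 3.77% and 6.04% in HEK293 and 1.53%, 2.57% and 2.56% in K562, without overlap between the lines (exact permutation p = 0.1, adjusted 0.533 over the regions). Sites that recurred within a line were also placed in regions. In HEK293, 70 of 130 recurring sites (53.8%) lay in 3′ UTRs against 35.8% of the enriched peaks on average, and in K562 26 of 36 (72.2%) against 32.6%. The difference was not tested, and recurring sites have more reads. For FAM120A, which binds 3′ UTRs, the shares were 96.8% and 95.2% in HEK293, and for IGF2BP2 68.0% and 50.0%.

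A ZC3H11A signal present in both lines lay outside these lists, in peaks that the authors removed as repeats. Runs of at least 20 A in the genome, on the strand of the peak, held peaks of ZC3H11A in every library, and these were examined after their values were seen, so that they are a description with no support from a design. ZC3H11A had 117 and 214 such sites in HEK293 and 428, 148 and 124 in K562, with touching peaks counted as 1 site, and 116, 208, 418, 148 and 114 of these were removed as repeats. They held 1.31% and 2.46% of its reads in peaks in HEK293 and 16.04%, 2.74% and 4.21% in K562. In each pool this was more than for any of the other 9 RBPs, whose shares ran from 0.00304% to 1.68%. ZC3H11A gave 1.66% to 2.78% of the reads in peaks of the 10 RBPs but 53.1% and 44.1% of those at A runs in HEK293 and 50.3%, 44.02% and 49.3% in K562. FAM120A was second in 4 pools and IGF2BP2 in K562 replicate 3, with 17.6% to 33.7% among them.

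**Figure D4:**
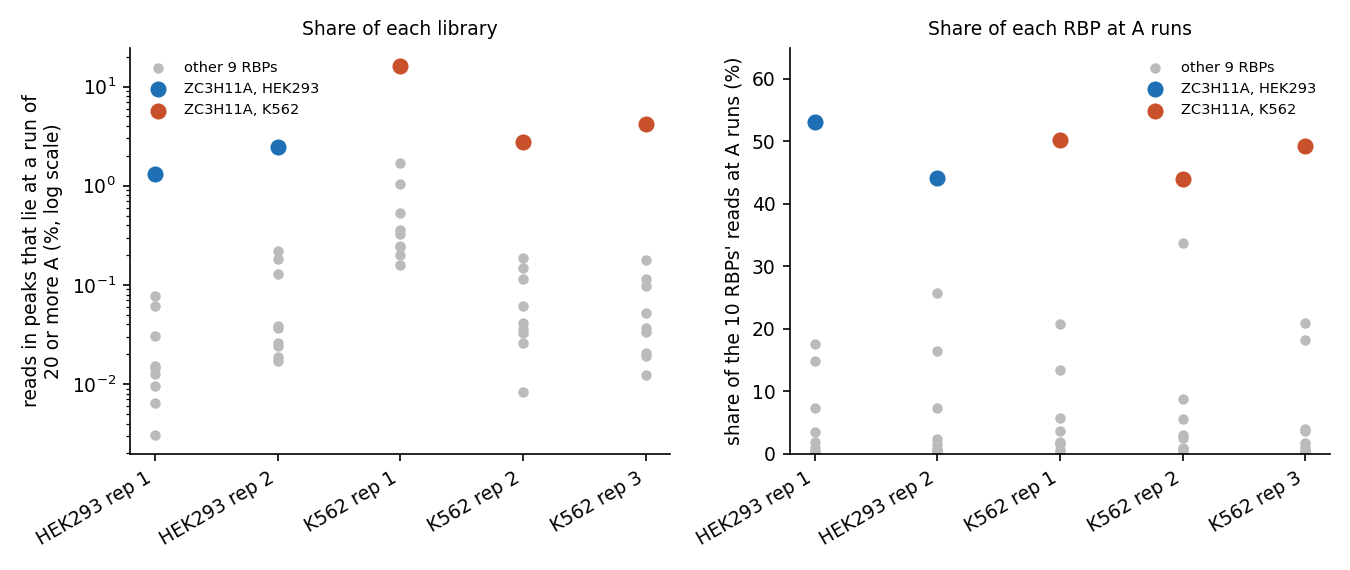
Left, the percent of a library's reads in peaks that lie at runs of at least 20 A (y axis, log scale) in each pool (x axis); right, the percent of the reads of all 10 RBPs at such runs that each RBP holds (linear y axis). ZC3H11A (blue in HEK293, orange in K562) is highest of the 10 RBPs (others grey) in all 5 pools in both panels, at 44.02% to 53.1% on the right.

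The share that ZC3H11A held at A runs did not differ beyond the spread between pools, at 48.6% ± 6.37 (SD, n = 2) in HEK293 and 47.9% ± 3.37 (SD, n = 3) in K562 (difference 0.75 percentage points, exact permutation test, two-sided, p = 0.9). The share of its own reads at A runs was 1.89% ± 0.81 against 7.66% ± 7.29 (exact permutation p = 0.4), and K562 replicate 1 raised the latter: without it the K562 mean was 3.48%. In that pool the other 9 RBPs also had a larger share of their reads at A runs than in the other pools. With runs of at least 25 A, ZC3H11A held 55.8% to 58.6% in all 5 pools. With runs of at least 15 A it held 17.7% to 37.4% and was highest in K562 replicate 1 alone, since FAM120A had 34.5% to 64.1%. The predominance of ZC3H11A was thus seen at the longer runs. At runs of at least 20 T, which at most 8 ZC3H11A sites in a library had, ZC3H11A held 19.2% to 51.2% on 21 to 53 reads and was highest of the 10 RBPs in 4 of 5 pools. At runs of G it held 3.44% to 4.55%, and at runs of C at most 17.6%.

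In all 5 libraries, 25 A-run sites had a ZC3H11A peak, 22 of them in distal introns, and the longest run in each had 22 to 47 A (median 37). For the other RBPs this number was at most 8 (IGF2BP2). The following 3 sites are shown for the bases that come before the run, with the run in capitals.
MNS1 intron, chr15:56461989-56462018, minus strand: caccccacAAAAAAAAAAAAAAAAAAAAAA
LINC02934 intron, chr2:65517524-65517553, plus strand: aaaaaaccAAAAAAAAAAAAAAAAAAAAAA
EYS intron, chr6:65550164-65550193, minus strand: ttatccccAAAAAAAAAAAAAAAAAAAAAA
At the MNS1 site ZC3H11A had 23 and 110 reads in HEK293 and 374, 137 and 38 in K562, and the called peaks of the other 9 RBPs together held 4 and 79 against 238, 79 and 17. At the LINC02934 site it had 18 and 153 against 113, 40 and 50, where the others had 11 and 94 against 76, 25 and 32, so that its share was 59.8% to 62.1% in every pool. At the EYS site it had 23 and 57 against 52, 9 and 32 reads, and the others had 17 and 38 against 22, 3 and 15.

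At these 3 sites ZC3H11A thus had more reads in called peaks than the other 9 RBPs together in every pool of both lines. Reads of an RBP without a called peak are not counted, and the 25 sites were chosen by the peaks of ZC3H11A, which raises its share there. The mean share of ZC3H11A over the 5 pools had a median of 64.3% (40.3% to 67.4%) at the 8 A-run sites chosen in the same way by the peaks of IGF2BP2, whose own median was 18.9%. At the 6 chosen by FAM120A the median was 50.5% (0% to 61.3%) beside 19.9% for FAM120A. These sets share sites with the 25, as the highest shares, 67.4% and 61.3%, are those of MNS1 and LINC02934. They are thus not independent of the choice by ZC3H11A. Among the 25 sites the share was lowest, at 13.2%, at the one 3′ UTR site, in KPNB1, the import receptor importin beta. Several of the genes, such as EYS, which is known for its role in the retina, and RBFOX1, a neuronal splicing factor, had next to no reads elsewhere. At 19 of the 25 sites the A run held over 50% of the reads in called peaks of the 10 RBPs in the gene (median over the 25 sites 92.8%). For EYS it was 96.4% of 278 reads and for RBFOX1 96.9% of 1055. How the aligner placed reads from an A run, which occurs in many transcripts and in poly(A) tails, was not tested, and these sites are therefore values of the sequence class and not of the genes they lie in.

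Among the enriched peaks outside repeats, runs of purines were looked for as well. A run of at least 8 A or G, in the peak extended by 50 nt on both sides, was found in 49.1% and 51.3% of the HEK293 peaks and 51.4%, 46.7% and 50.0% of the K562 peaks. The lines differed by 0.83 percentage points (exact permutation test, two-sided, p = 0.9). In equally long windows at a distance of 500 nt such a run was found in 40.7% to 45.9%, fewer than in the peaks of each library (by 5.58 percentage points in HEK293 and 8.4 in K562 on average), and the peaks of the other 9 RBPs in 32.1% to 54.4%. The excess over windows ran from -10.5 to 12.4 percentage points for the other 9 RBPs. It was larger than that of ZC3H11A in every pool for LIN28B and PRPF8, and negative in every pool for DDX3 and IGF2BP2. The enriched peaks had a median G and C content of 52.1% to 57.1% and a median width of 33 to 43 nt, and these ranges overlap between the lines.

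For levels per gene, ZC3H11A reads were set over the reads of the other 9 RBPs in the same gene and pool, as a log2 ratio centred on the median gene. The 987 genes tested had a ZC3H11A peak in all 5 libraries and at least 20 reads of the other RBPs in each pool. Reads in repeats were counted here, those at A runs included, so that the ratios and their correlations are not free of that signal. LINC02934, whose A-run site is shown above, had the highest mean ratio (5.80) with 0 enriched peaks in each library. In limma, 0 genes passed an adjusted p of 0.05 in either direction (0% of 987). Unadjusted p-values were below 0.05 for 44 genes (4.46%) higher in HEK293 and 56 (5.67%) higher in K562. In simulated data of these libraries the fit found 44.9% of genes changed 4-fold and 4.5% of those changed 2-fold, so that 2-fold differences were not detectable at this depth. Gene ratios correlated with r = 0.67 to 0.72 between libraries of a line and 0.61 to 0.66 between libraries of different lines, over 987 genes that share the depth of their library and are not independent.

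**Figure D5:**
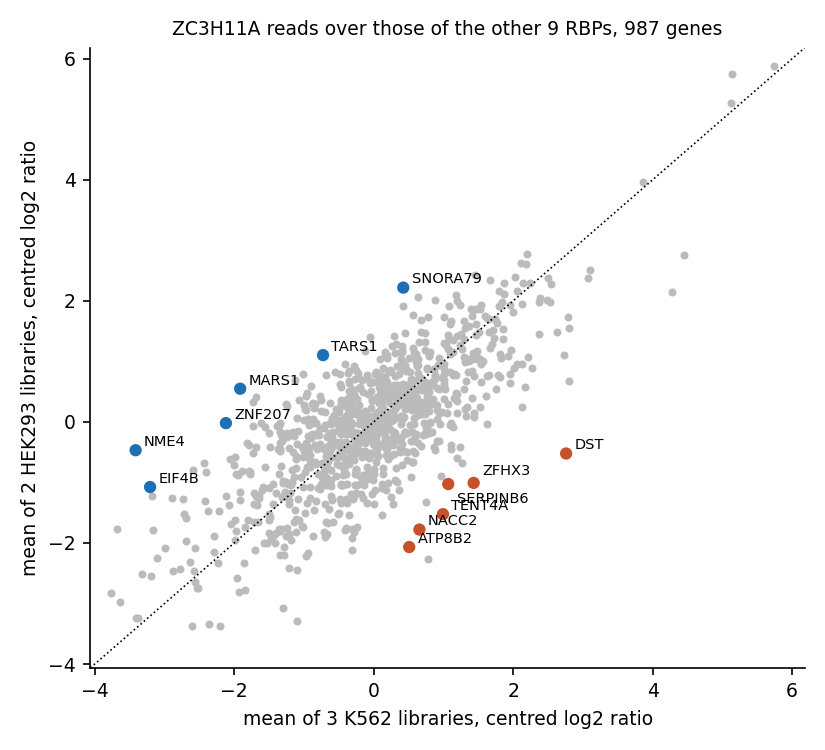
Each point is 1 of 987 genes, with the mean centred log2 ratio of ZC3H11A reads over those of the other 9 RBPs in the 3 K562 libraries (x axis) and the 2 HEK293 libraries (y axis). Genes scatter around the dotted line of equality, and the 6 genes with the lowest p in each direction are named (blue higher in HEK293, orange higher in K562), none of which passed an adjusted p of 0.05.

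The lowest p higher in HEK293 was that of NME4, a mitochondrial nucleoside diphosphate kinase, with 34 and 28 ZC3H11A reads in HEK293 and 4, 6 and 3 in K562, or 21.3 and 18.7 per 1000 reads of the other RBPs against 3.11, 1.73 and 1.78. The lines do not overlap there, and the log2 difference was 2.95 (SE 0.63, limma, adjusted p = 0.16). MARS1 and TARS1, the methionyl and threonyl tRNA synthetases of the cytosol, followed with SNORA79, ZNF207 and EIF4B, with log2 differences of 1.80 to 2.46 (adjusted p 0.16 to 0.32). MARS1 had 48.9 and 33.6 ZC3H11A reads per 1000 reads of the other RBPs in HEK293 and 7.09, 4.64 and 5.92 in K562. These came from 48 and 38 ZC3H11A reads in HEK293 and 3 in each K562 library, the fewest that a called peak can have. The reads of SNORA79 can also come from its host transcript.

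Higher in K562 were TENT4A, a noncanonical poly(A) polymerase, ATP8B2, ZFHX3, NACC2, DST and SERPINB6. TENT4A had 8 and 5 reads in HEK293 and 9, 25 and 4 in K562, or 14.5 and 5.62 per 1000 reads of the other RBPs against 49.2, 85.6 and 25.8. Its log2 difference was -2.52 (SE 0.58, limma, adjusted p = 0.16). The differences of the other 5 ran from -3.28 to -2.10 (adjusted p 0.16 to 0.24). DST varied most, with 658.5 per 1000 in K562 replicate 3 against 111.1 and 55.6 in the other K562 libraries. These values rest on 27, 5 and 3 ZC3H11A reads over only 41, 45 and 54 reads of the other RBPs. In HEK293 DST had 11 and 110 ZC3H11A reads over 1346 and 2474, or 8.17 and 44.5 per 1000, so that coverage differed widely between the lines.

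Genes of mRNA export and TREX were looked at as a list because of the known partners of ZC3H11A. Of 30 of its genes with enough reads of the other RBPs, DDX39B, the RNA helicase UAP56 of TREX, recurred in HEK293 and RBM15, a partner of the export receptor and of m6A methylation, in K562, which is 3.33% each beside 3.69% and 0.923% of all such genes. DDX39B had 132 and 289 ZC3H11A reads in HEK293 and 23, 87 and 25 in K562, and it was also enriched in K562 replicate 2. Its best log2 folds in HEK293, 3.00 and 3.04, were close to the limit of 3. RBM15 had 10 and 16 ZC3H11A reads in HEK293 and 6, 5 and 3 in K562. Its best K562 peaks had 3, 5 and 3 reads and lay in the CDS, the CDS and the 3′ UTR. Of 32 SR and hnRNP genes, 3 recurred in HEK293 (SRSF5, SRSF11 and HNRNPA2B1) and 0 in K562. SRSF11 also had 2 and 3 enriched peaks in K562 replicates 1 and 2. SRSF5 and HNRNPA2B1 had no enriched peak in K562, where they held 0, 29 and 6 and 51, 136 and 74 ZC3H11A reads. Of 102 zinc finger genes named ZNF, 9 recurred in HEK293 (8.82%) and 0 in K562. Among these 9, ZNF410 and ZNF271P had no enriched peak in K562, while the others were enriched in part of the K562 libraries. The lines differ in the number of libraries needed, so these counts do not compare them. None of 77 ribosomal protein genes, 31 histone genes, 19 snoRNA hosts, 10 heat shock genes, 7 NF-kappaB genes and 4 nuclear long noncoding RNAs recurred in either line. In limma 0 genes of any list passed. The median log2 difference was 0.60 for 9 ZNF genes, 0.48 for 11 export genes and 0.39 for 23 SR and hnRNP genes, 0.11 to 0.29 for 44 ribosomal protein genes and 3 nuclear RNAs, and -0.22 to -0.16 for histone genes, snoRNA hosts and heat shock genes, beside -0.02 over all 987. The transcript of ZC3H11A itself had 11 and 50 ZC3H11A reads in HEK293 and 13, 47 and 3 in K562, and 0, 0, 1, 3 and 0 enriched peaks.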

How the data were processed

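The authors aligned reads uniquely to GRCh38 after setting aside reads from repetitive elements, collapsed PCR duplicates and called the peaks of each library with CLIPper. They deposited each peak's CLIPper p-value with a whole-number display score, and for merged peaks the −log10 P (capped at 400) and log2 fold against an external background. Against the CC they deposited a chi-squared value (another unit) with its p-value, without peaks in repeats, for 4 pools, and a −log10 P and log2 fold, with repeats, for K562 replicate 3. STAR 2.7.6 and cutadapt 2.8 are in the submitters' notes.

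Reads per peak were recovered from the ratio behind the log2 fold, and CC reads solved from the chi-squared value, with a CC of 0 taken as 1. P over the CC was the deposited P in K562 replicate 3 and that of the chi-squared value in the other pools. The paper names Fisher's exact test for low read numbers, so the P limit may not be the same test in all pools. The setting of 1 test for all pools used the chi-squared P throughout. On data simulated from 4520 ZC3H11A peaks of K562 replicate 3, CC reads were equal for 94.4% and the direction for 97.0%, and 100% of enriched peaks were found. The simulation took the reads per peak as known and gave both lists the same P. It thus covers direction, CC reads and fold in that library, while the recovery of reads per peak and the other pools were not tested. Reads of touching peaks count in each, and depth limits which peaks, of at least 3 reads, could be called. Regions came from GENCODE 44 (91.8% to 92.9% as the authors', who used 35). For K562 replicate 3, 243 peaks in repeats were removed and 232 of undetermined status kept.

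Tests were exact permutations over libraries and limma 3.58.1 (trend, pseudocount 0.5, Benjamini-Hochberg), tested on simulated data. Named genes were up to 8 sites or genes a class with the highest mean log2 fold, with 20 or more reads of the other 9 RBPs in every pool for genes, and 6 by lowest p in each direction. Members and lists were chosen with earlier results of these data known. The own-oligo rule, which takes the barcode most often found in front of AGATC, and the A runs were set after seeing the data. Alternatives were other limits, the external background, adapter sites or repeats kept, the 500 highest peaks, region and overlap rules, library totals, the replicate block and each library left out.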

Additional observations from a re-analysis of the deposited data

How the results depend on the processing

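Of 223 other settings of the main results, 147 kept direction and call. Recurring genes (366 in HEK293, 77 in K562, 28 in both, 191 and 25 in one line only) became 1695, 898, 450, 657 and 250 with the external background, where 1399, 666 and 251 sites recurred in HEK293, K562 and both (130, 36 and 8 in the report). This background had at most 1 read at 93.6% to 95.3% of K562 peaks and 10.4% to 10.95% of HEK293 peaks, so that the lines do not compare under it. With P below 1e-05 and a fold above 16 the genes were 67, 20, 5, 39 and 6 and the sites 30, 7 and 3, and with the 500 highest peaks 55, 27, 5, 28 and 14 genes and 27, 10 and 3 sites. A fold above 4 gave 630 genes in HEK293, 51 in both and 294 in HEK293 only, with 328, 55 and 13 sites. Keeping adapter-like sites gave 46 genes in both lines, 55 sites in K562 and 25 in all 5 libraries. Leaving out peaks of undetermined repeat status, chosen after seeing the data, gave 16 genes in K562 only.

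The region and purine differences (HEK293 minus K562, percentage points), none of which passed its test, turned sign under some settings. The distal intron difference of -0.82 became 8.20 with the external background, 0.27 with the 500 highest peaks, 1.49 with 1 test for all pools and 4.84 without undetermined peaks. The 3′ UTR difference of 3.19 became -0.73 with the stricter limits and -0.39 without undetermined peaks. The purine run difference became -0.41 with the stricter limits and -2.29 with repeats kept in K562 replicate 3. The cause was not tested.

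Leaving out 1 library at a time gave 366 to 1329 genes in HEK293, 77 to 238 in K562, 31 to 54 in both, and 199 to 928 and 37 to 111 in one line only. Sites ranged from 130 to 1702 in HEK293, 36 to 101 in K562 and 9 to 16 in both. The number of enriched peaks differed by 84.0 to 976.0 between the lines. The CDS difference ranged from -9.02 to 1.70, the 3′ UTR from 1.73 to 4.12, the distal intron from -4.67 to 3.87, the noncoding exon from 1.55 to 3.82 and the purine run from -0.51 to 1.95. A line then needs 1 library fewer, which raises counts by construction. At A runs, ZC3H11A held 44.1% to 53.1% in HEK293 and 46.6% to 49.8% in K562; with runs of at least 15 A it held 22.3% and 26.8%, and with at least 25 A 57.2% and 57.3%.

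In limma, library totals in place of the median passed 1 gene (NME4, adjusted p = 0.04) higher in HEK293, and leaving out 1 library 0 to 1 higher in HEK293 and 0 to 2 in K562. The replicate block, which uses replicates 1 and 2 of each line alone, passed 5 genes higher in HEK293 and 22 in K562 of 1374 tested, and the same libraries without the block passed 0 and 2. The replicate numbers do not pair the pools (correlation of their deviations 0.004). Depth limits the precision: the median enriched peak had 3 or 4 reads.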

Other observations

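ZC3H11A had 137 sites in repeats with a peak in all 5 libraries. It held a median of 5.40% of the 10 RBPs' reads there, and more than 20% at 34 sites. The latter include A-run sites described above, such as those of MNS1, LINC02934 and EYS, and are not a separate signal there. The sites were chosen by the peaks of ZC3H11A, which raises its share.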
